A study of Mus musculus with 15 samples.

Results

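The genotype by MC903 interaction in skin regulatory T cells (Tregs) is the question of whether deleting Rora in Tregs changes gene expression by the same amount in inflamed skin as in untreated skin. It was read from the 12 skin libraries among the 15 libraries of the series, which form 4 groups of 3. The other 3 are lymph node libraries and were not used. For each gene the interaction is the difference between genotypes in MC903-treated skin minus the same difference in untreated skin, on the log2 scale, so a value of 0 means that the genotypes differ by the same ratio in both. All mice were adult C57BL/6 carrying the Foxp3 cre-eyfp allele, in which the Treg gene Foxp3 drives Cre recombinase and a yellow fluorescent protein (YFP), so the controls carry Cre as well. Wild-type (WT) mice have the genotype Foxp3 cre-eyfp, and conditional knockout (cKO) mice have Foxp3 cre-eyfp Rora fl/fl, so that Rora is floxed in every cell and can be cut only where Foxp3 has been expressed. MC903 was dissolved in ethanol and put on the ears 4 times, on alternate days, whereas the untreated mice received nothing. Cells positive for CD45, CD3, CD4 and YFP were sorted, from back skin together with ears in untreated mice and from ears alone in treated mice. MC903, ethanol and the site sampled therefore moved together and cannot be told apart, but they did so alike in both genotypes.

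Tregs hold immune responses in check, and a large population lives in skin, where it carries receptors, effector molecules and repair factors that circulating Tregs largely lack. ROR-alpha, the product of Rora, is a nuclear receptor that binds DNA as a monomer at an AGGTCA half-site preceded by A and T bases, and it drives clock genes such as Arntl while the REV-ERB receptors repress them from the same sites. MC903, also called calcipotriol, resembles vitamin D and makes keratinocytes release the alarm cytokine TSLP and is used in mice as a model of type 2 skin inflammation resembling atopic dermatitis. The series title asks whether Tregs that express ROR-alpha restrain that inflammation, and the interaction is where a gene that ROR-alpha controls only in inflamed skin would appear.

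The deposited counts summed to 19.8 to 27.2 M per library (M for mega), and 13211 of 24015 genes passed the filter on low counts. Transcripts of the sorting genes Ptprc, Cd3e, Cd3d, Cd3g, Cd4 and Foxp3 were present in all 12 libraries. Rora itself was read at 1258, 1306 and 1438 counts per M (CPM) in untreated WT libraries, 796, 1031 and 1150 in untreated cKO, 781, 708 and 759 in MC903 WT and 608, 477 and 457 in MC903 cKO. Within each treatment every cKO value was under every WT value, yet most of the transcript was still counted in cKO, and gene-level counts cannot tell whether a floxed exon is missing from it. The genotype difference in Rora was -0.43 ± 0.15 on the log2 scale (SE) without MC903 and -0.54 ± 0.15 with it. Neither passed the test (adjusted p = 0.283 and 0.225 by edgeR). The interaction was -0.12 (95% interval -0.56 to 0.32), and MC903 lowered Rora by log2 changes of -0.83 in WT and -0.95 in cKO. Titles call the 3 libraries of a group biological replicates, and p-values measure the spread between them. In bulk RNA, fewer cells of a type and less RNA per cell cannot be told apart.

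No gene had a genotype difference that changed with treatment by the quasi-likelihood test of edgeR, with Benjamini-Hochberg adjusted p-values. Of 13211 genes, 0 were called at an adjusted p under 0.05, which is 0% of those tested in either direction, and the smallest adjusted p was 0.689. At an unadjusted p under 0.05 there were 649 genes, 4.91% of those tested, 355 with a positive interaction and 294 with a negative one. DESeq2's Wald test, the alternative tool, called 13 genes, 0.119% of the 10891 to which it gave an adjusted p. Limma-voom with sample weights called 0. The same libraries gave calls in each simple comparison. Between genotypes, 107 genes (0.81%) were called in untreated skin, 58 higher in cKO (0.439%) and 49 lower (0.371%), and 47 genes (0.356%) in MC903 skin, 22 higher (0.167%) and 25 lower (0.189%). Against untreated skin, MC903 moved 1292 genes (9.78%) in WT, 558 up (4.22%) and 734 down (5.56%), and 1339 genes (10.1%) in cKO, 686 up (5.19%) and 653 down (4.94%).

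An interaction is a difference of 2 differences, so its error is larger. The median SE over genes was 0.375 for the interaction and 0.266 and 0.265 for the genotype difference in untreated and in MC903 skin. The 95% interval of the interaction lay wholly within 1 log2 unit of 0, a 2-fold change in the genotype ratio, for 5754 genes, 43.6% of those tested. For the other genes the interval reached a 2-fold interaction or more in at least one direction.

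**Figure D1:**
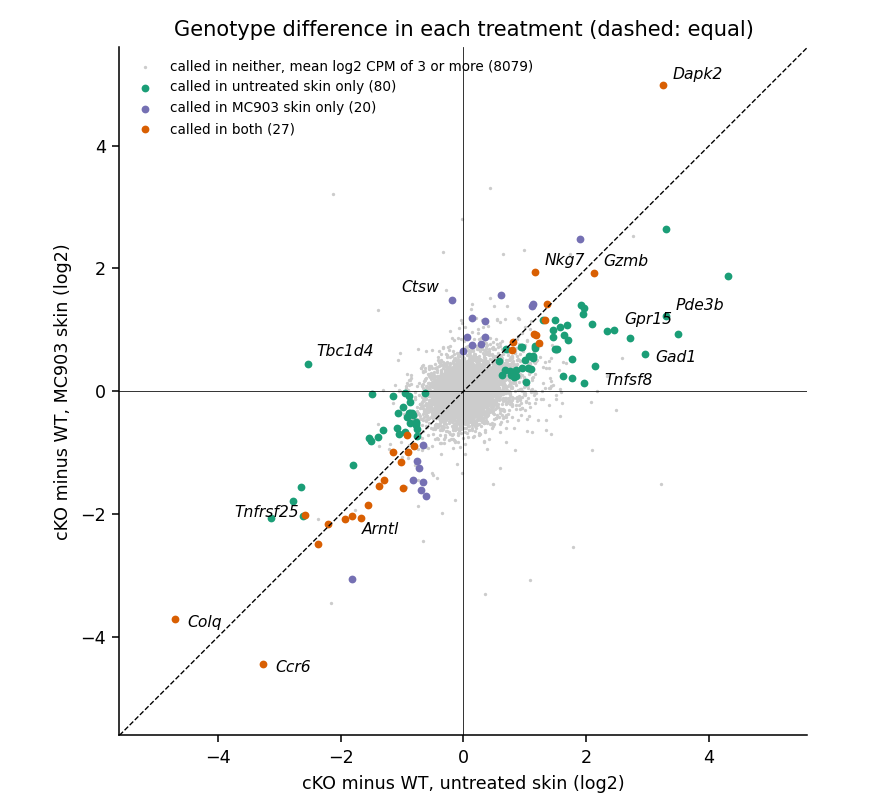
Each point is a gene, with the log2 difference between cKO and WT in untreated skin on the horizontal axis and in MC903 skin on the vertical axis, and colours show where the genotype difference was called. The 27 genes called in both lie on the same side of 0 on both axes, with Dapk2, Ccr6 and Colq off the dashed line of equality, while many of the 80 called only in untreated skin lie between that line and the horizontal axis.

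The genotype difference without MC903 and the one with it rest on different libraries, so each can be set against the other. Of the genes called in untreated skin and in MC903 skin, 27 were called in both, 25.2% of the first list and 57.4% of the second. All 27 had the same direction, 10 higher and 17 lower in cKO, and their median absolute interaction was 0.197. A call in both treatments favours alike differences, so this small median is partly built in. Of the 127 genes called in either treatment, 124 had the same sign in both. An unadjusted interaction p under 0.05 was reached by 61 of them, and a call in only 1 treatment favours such a p. The 58 genes called higher in untreated skin had a median difference of 1.34 there, the value that chose them, and 0.73 in MC903 skin, where 58 of 58 were above 0 and 46 did so at an unadjusted p under 0.05. The 49 genes called lower had medians of -1.07 and -0.72, with 48 of 49 below 0 in MC903 skin and 40 of them at an unadjusted p under 0.05. Over all 13211 genes, 859 reached that p in MC903 skin, in either direction. Chosen the other way, the 22 genes called higher in MC903 skin had a median of 1.15 there and 0.96 in untreated skin, and the 25 called lower had -1.58 and -1.14. In each of the 4 lists the median was smaller in the treatment that did not choose it. Across the 8195 genes whose mean log2 CPM reached 3, the 2 genotype differences correlated at Pearson r = 0.368, and across all 13211 at r = 0.118; genes are not independent replicates. All 3 cKO libraries lay on the same side of all 3 WT libraries in both treatments for 387 genes (2.93%), and on opposite sides for 57 genes (0.431%).

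Tnfrsf25, which encodes the TNF family receptor DR3, had nearly equal genotype differences in both treatments. Untreated WT libraries held 138, 172 and 141 CPM, untreated cKO libraries 30.3, 37.6 and 29.8. Under MC903 the WT libraries held 164, 222 and 191 CPM against 40.1, 49.8 and 38.7 for cKO, so that every cKO library was far below every WT one. It fell by 2.21 in untreated and by 2.17 in MC903 skin, and the interaction of 0.04 had a 95% interval from -0.43 to 0.51.

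Gzmb, the gene of the cytotoxic protease granzyme B, went the other way by a similar amount in both. Untreated WT libraries held 937, 820 and 926 CPM and untreated cKO libraries 4881, 2942 and 3855 CPM, and with MC903 there were 1140, 917 and 1165 CPM for WT against 4330, 3464 and 4388 for cKO. It rose by 2.12 ± 0.18 and 1.92 ± 0.18, with an interaction of -0.20 (95% interval -0.72 to 0.31). The groups did not overlap in either treatment.

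Arntl and Nr1d1, of the clock, were called lower in cKO in both treatments. Arntl (BMAL1), the activator of the clock, was at 116, 96.2 and 111 CPM in untreated WT, 20.8, 37.6 and 33.9 in untreated cKO, 95.5, 99.1 and 104 in MC903 WT and 21.1, 27.0 and 25.0 in MC903 cKO. The 2 WT groups overlapped in level and so did the 2 cKO groups, and the genotype difference was -1.81 ± 0.19 and -2.03 ± 0.19 (interaction -0.22, interval -0.79 to 0.35). Nr1d1, which encodes the clock repressor REV-ERB-alpha, combined both effects. It was at 140, 103 and 106 CPM in untreated WT, 22.9, 48.4 and 19.8 in untreated cKO, 17.3, 28.4 and 28.1 in MC903 WT and 4.69, 5.45 and 7.29 in MC903 cKO. MC903 lowered it by a log2 change of -2.24 in WT and -2.39 in cKO, genotype lowered it by -1.94 and -2.08, and the interaction was -0.15 (interval -1.10 to 0.81). The Nr1d1 genotype call in untreated skin was not kept without untreated cKO replicate 1. That in MC903 skin was not kept without MC903 WT replicate 2 or 3 or MC903 cKO replicate 1 or 2. Neither was kept without the 3 libraries with the highest fibroblast and endothelial marker sums (adjusted p up to 0.0998 by edgeR). Cry1, a clock repressor, was the list member with the smallest interaction p. Its genotype difference was -0.66 ± 0.17 in untreated skin, which was not called (adjusted p = 0.0963 by edgeR), and -1.47 ± 0.17 in MC903 skin, which was (interaction -0.81 ± 0.23, interval -1.32 to -0.31).

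Ccr6, a chemokine receptor gene of type 17 cells and of Treg subsets, had the most negative genotype difference under MC903 of the 27 genes. It was read at 102, 108 and 118 CPM in untreated WT against 16.7, 11.2 and 6.41 in cKO, and at 73.9, 98.5 and 94.9 CPM in MC903 WT against 2.45, 4.84 and 5.03 in cKO. The difference was -3.26 ± 0.32 without MC903 and -4.44 ± 0.35 with it, and the interval of the interaction, -2.12 to -0.26, left out 0 before adjustment over genes but not after it (adjusted p = 0.938 by edgeR). Colq, the gene of the collagen that anchors acetylcholinesterase, was at 24.7, 39.4 and 30.3 CPM in untreated WT and 1.11, 1.95 and 0.600 in cKO, and at 22.6, 30.2 and 38.2 CPM in MC903 WT and 2.03, 2.68 and 2.21 in cKO. Its difference was -4.69 and -3.71, the interaction 0.98 (interval -0.04 to 2.0). For both genes the cKO libraries of the 2 treatments did not overlap while all stayed below the WT libraries.

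Other genes called in both treatments by the naming rule were Leo1 (interaction -0.09, interval -0.48 to 0.29), of the PAF1 transcription elongation complex, Spsb3 (0.15, -0.25 to 0.55), of a ubiquitin ligase adaptor family, Nebl (-0.39, -1.10 to 0.32), an actin-binding protein gene, Mns1 (-0.11, -1.15 to 0.93), a cilium and sperm structure gene, and Nkg7. Leo1 and Mns1 lie on the chromosome that carries Rora. Leo1 calls were not kept without the 3 libraries with the highest fibroblast and endothelial marker sums (adjusted p up to 0.154 by edgeR). The Mns1 call in MC903 skin was not kept without those 3 libraries, nor without MC903 cKO replicate 2 (adjusted p up to 0.0864 by edgeR). Of the 27 genes called in both, 17 had an interaction interval within 1 log2 unit, and 4 had an unadjusted interaction p under 0.05, namely Nkg7, Ccr6, Fam46a and Rbl2, the last 2 named after their values were seen. Over all 13211 genes the shares were 43.6% and 4.91%. The 27 were chosen by a call in both treatments, which favours alike differences.

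**Figure D2:**
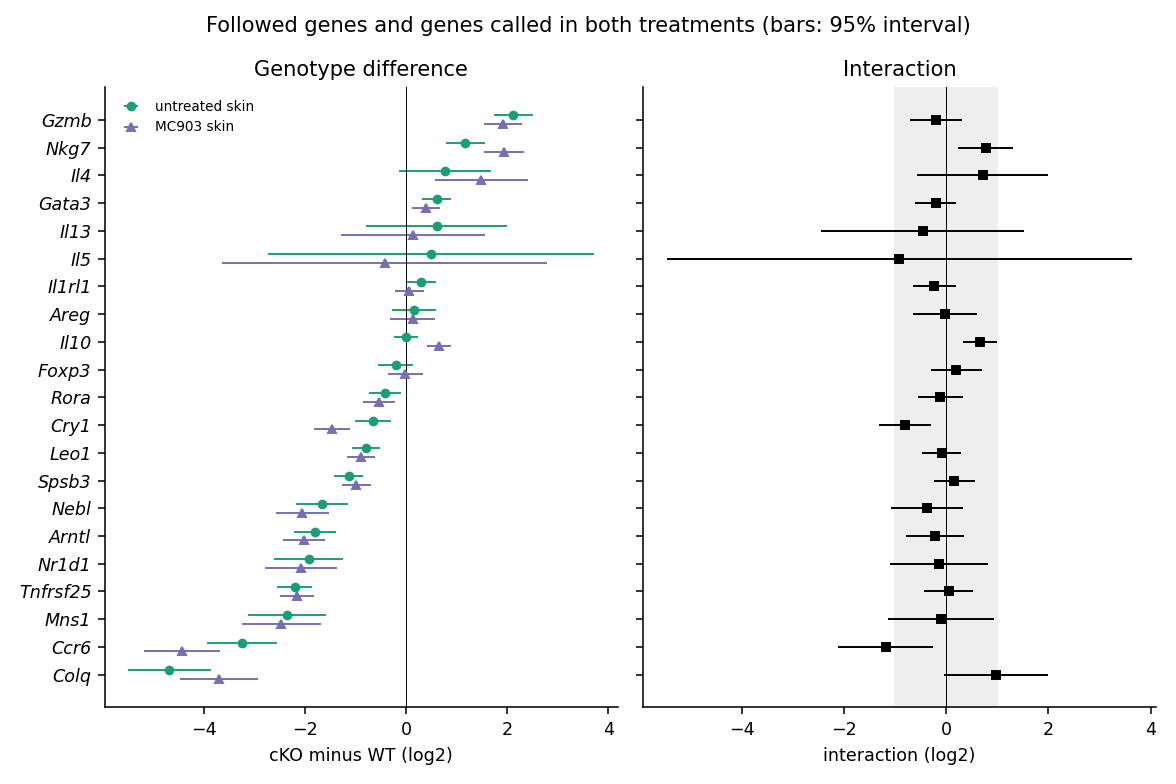
The left panel gives the log2 difference between cKO and WT in untreated skin (circles) and MC903 skin (triangles) for the genes followed throughout and those called in both treatments, and the right panel gives the interaction, with 95% intervals as bars and a grey band from -1 to 1. The left-hand pairs overlap for Tnfrsf25, Gzmb, Arntl and Nr1d1. The interaction intervals of Il10 and Nkg7 lie to the right of 0, and those of Cry1 and Ccr6 lie to the left.

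Because ROR-alpha has a known half-site, the windows from 250 bases before to 50 bases after annotated starts (RefSeq, GRCm38.p6, a later build than that of the counts) were searched on both strands for AGGTCA. Of the 17 genes called lower in cKO in both treatments 14 had a window, and 6 of those (42.9%) held the letters in at least 1 window. Of the 10 genes called higher 7 had a window and 1 did (14.3%), and of all tested genes 9946 had one and 1479 did (14.9%). The longer TAGGTCA, which contains the first motif, was in 3 of the 14 (21.4%), 0 of the 7 and 222 of the 9946 (2.23%). The 30 bases around each match in the 6 lower genes are shown because these genes are lower in cKO both with and without MC903, with AGGTCA in capitals, read along the strand that holds it.
Arntl, chr7:113207530-113207559 (+): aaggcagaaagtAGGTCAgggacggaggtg
Ccr6, chr17:8235987-8236016 (-): acttatgtaactAGGTCAatgatttcactg
Leo1, chr9:75441450-75441479 (+): ctggagaaaactAGGTCAcaaaagtaaagt
Nebl, chr2:17462938-17462967 (+): ttttcttttaagAGGTCAgaatcagaattt
Rarg, chr15:102257730-102257759 (+): cagagctggcagAGGTCAgtgtcctgggct
Tnfrsf25, chr4:152116144-152116173 (-): ttccagggctacAGGTCAggttctggacag
In Arntl, Ccr6 and Leo1 the half-site follows a T, and in the other 3 it follows a G or a C. A match is a description of these letters and not evidence of binding, and no binding was measured.

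No gene passed the interaction test, so the genes described next are those that came nearest: the 10 in each direction with the smallest unadjusted p among genes whose mean log2 CPM reached 3, all of which missed edgeR's test at an adjusted p of 0.689 to 0.85. Of these 20, 10 were called by DESeq2, as were Tbc1d4, Pf4 and 1 unnamed gene model. A gene ranked by its p has a value that is larger than repeat libraries would give on average. The 10 with a negative interaction were all higher in cKO than in WT in untreated skin. In MC903 skin they were less so as a ratio, or the reverse.

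Gad1, a glutamate decarboxylase gene best known from neurons that make the transmitter GABA, had the smallest p. It was read at 0.807, 1.29 and 1.95 CPM in untreated WT, 13.7, 7.66 and 9.97 in untreated cKO, 20.4, 19.4 and 16.9 in MC903 WT and 32.6, 23.9 and 29.4 in MC903 cKO. The 4 groups did not overlap, and cKO Tregs of untreated skin lay between untreated and inflamed WT. The genotype difference was 2.96 ± 0.31 without MC903 (adjusted p = 3.05e-04 by edgeR) and 0.60 ± 0.28 with it (adjusted p = 0.762), an interaction of -2.36 ± 0.41. Equally, MC903 raised it by 3.81 ± 0.32 in WT and by 1.45 ± 0.28 in cKO. DESeq2 gave the interaction an adjusted p of 9.47e-04. The untreated genotype ratio rests on a low WT mean of 1.35 CPM, against 10.5 CPM in cKO. Under MC903 the means were 18.9 CPM in WT and 28.6 CPM in cKO. The genotype gap was therefore smaller with MC903 as a ratio but not in CPM.

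Gpr15, a homing receptor gene of T cells bound for the colon and skin, had the same shape. Untreated WT libraries held 5.06, 4.48 and 3.13 CPM and untreated cKO libraries 23.8, 18.3 and 27.7 CPM, and MC903 WT libraries held 55.5, 55.3 and 38.7 CPM against 111, 111 and 77.7 CPM in cKO. The 4 groups were again apart in that order. Genotype gave 2.46 ± 0.24 in untreated and 1.0 ± 0.22 in MC903 skin (adjusted p = 2.21e-04 and 0.0922 by edgeR), an interaction of -1.46 ± 0.32. MC903 raised Gpr15 in WT by 3.56 and in cKO by 2.10, both called. Group means were 4.22 CPM in WT and 23.3 in cKO without MC903, and 49.8 and 99.7 with it. Here too the genotype gap was smaller with MC903 only as a ratio.

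Tnfsf8, the gene of CD30 ligand, and Sidt1, a nucleic acid and cholesterol transporter gene, had a genotype gap that was not seen with MC903. Tnfsf8 was at 16.6, 18.9 and 21.3 CPM in untreated WT, 108, 57.1 and 84.8 in untreated cKO, 64.2, 73.9 and 36.2 in MC903 WT and 110, 68.2 and 54.1 in MC903 cKO. Only the untreated WT group was apart from the rest. The difference was 2.14 ± 0.32 in untreated and 0.42 ± 0.31 in MC903 skin, an interaction of -1.72 ± 0.44, and the untreated call was not kept without WT replicate 2 (adjusted p = 0.0537 by edgeR). Sidt1 was at 9.23, 8.78 and 6.66 CPM in untreated WT, 20.2, 38.1 and 25.5 in untreated cKO, 23.1, 16.8 and 18.9 in MC903 WT and 26.2, 22.3 and 19.5 in MC903 cKO. The interaction was -1.55 ± 0.34, and here too untreated WT stood alone at the low end. Fam69c, a kinase-like gene, had 1.77 ± 0.22 and 0.53 ± 0.21, an interaction of -1.25 ± 0.30.

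Pde3b, the gene of a phosphodiesterase that degrades cyclic AMP, differed in the other arm: it fell with MC903 in cKO, with no call in WT. It was read at 5.24, 6.42 and 2.67 CPM in untreated WT, 29.7, 53.3 and 58.1 in untreated cKO, 5.18, 6.13 and 6.06 in MC903 WT and 9.34, 13.9 and 17.3 in MC903 cKO. The 3 untreated cKO libraries were the highest of the 12. MC903 gave 0.27 ± 0.33 in WT, which was not called (adjusted p = 0.674 by edgeR), and -1.80 ± 0.33 in cKO, which was (adjusted p = 0.00432), an interaction of -2.07 ± 0.46. Pard3b, a cell polarity gene, was also high in untreated cKO, at 18.0, 15.4 and 25.9 CPM against 2.96, 1.38 and 0.872 in untreated WT, with an interaction of -2.56 ± 0.63. In MC903 skin its groups were 5.90, 5.09 and 4.25 CPM in WT and 16.1, 5.59 and 7.47 in cKO, which overlap. The remaining negative values were those of the N-terminal acetyltransferase gene Naa40 (-1.12 ± 0.29), the mitochondrial import receptor gene Tomm70a (-0.76 ± 0.20) and the RNA decay gene Ttc37 (-1.81 ± 0.47).

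**Figure D3:**
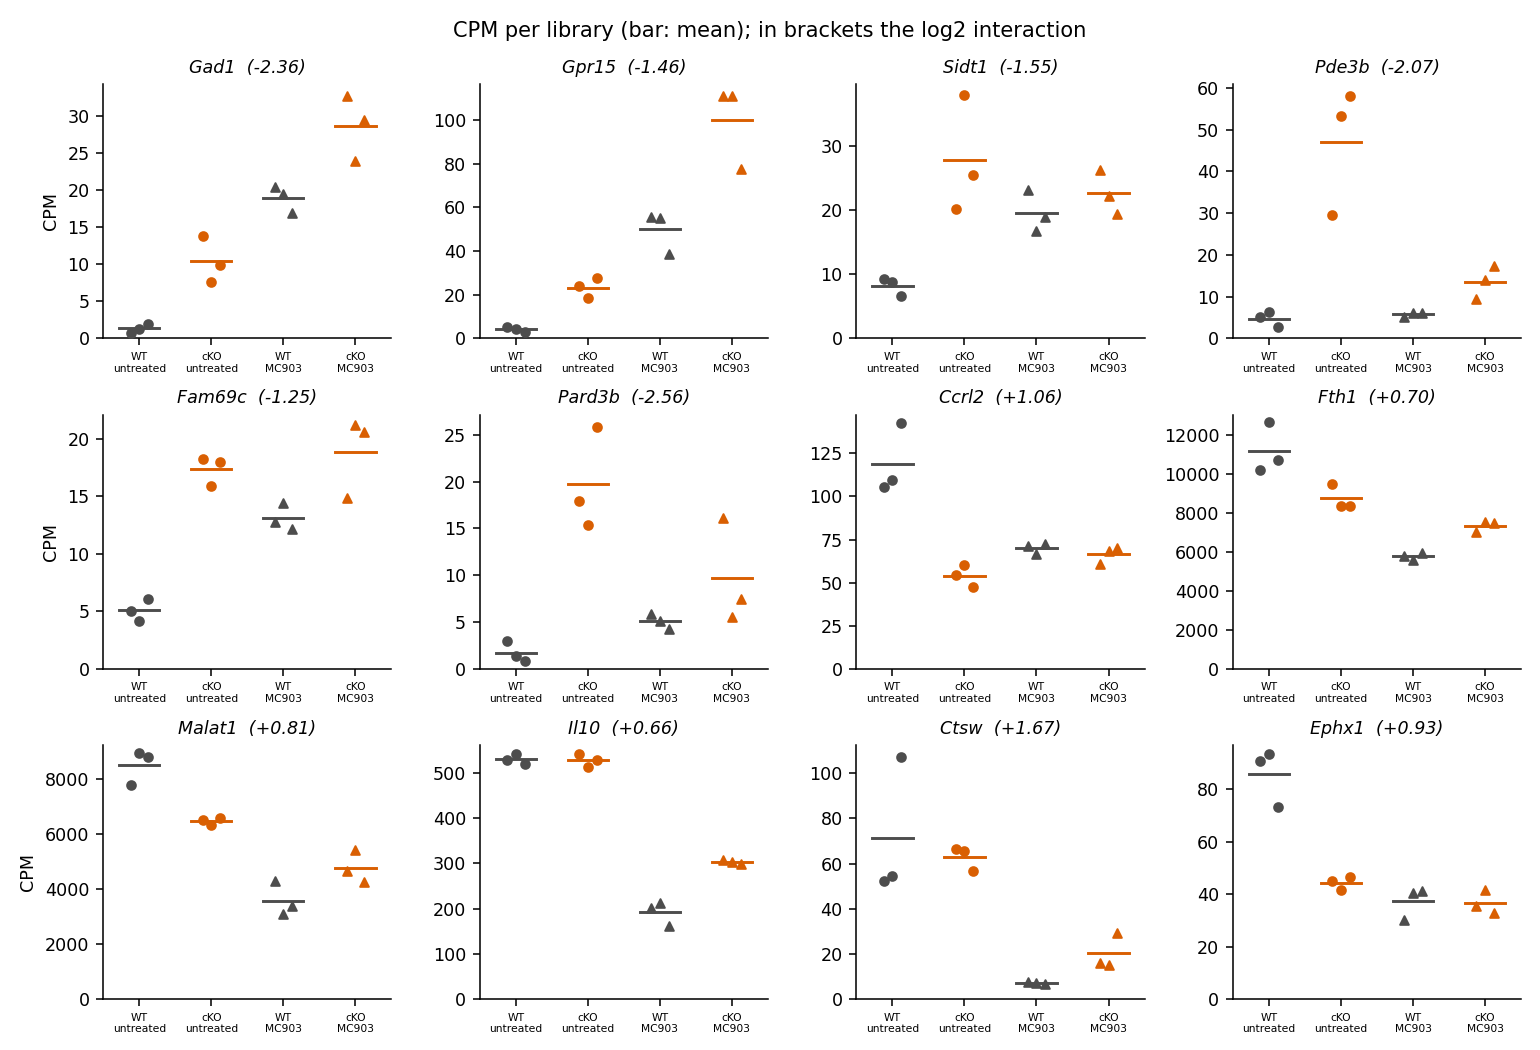
CPM of 12 of the genes with the smallest unadjusted interaction p, 1 panel per gene on a linear axis from 0, with 1 point per library, bars at group means, WT in grey, cKO in orange, circles for untreated and triangles for MC903 skin. In the panels of Gad1 and Gpr15 the 4 groups form a staircase, in that of Pde3b the untreated cKO group stands alone at the top, and in that of Il10 the genotypes overlap without MC903 and are apart with it.

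Among the 10 genes with a positive interaction 3 shapes occurred. In the first, cKO was lower in untreated skin and level with WT in MC903 skin. Ccrl2, a receptor-like gene that binds the attractant chemerin, was at 105, 109 and 143 CPM in untreated WT, 54.5, 60.2 and 47.5 in untreated cKO, 71.5, 66.9 and 72.5 in MC903 WT and 60.9, 68.4 and 70.1 in MC903 cKO. Untreated WT was highest, and the 2 MC903 groups overlapped. It fell with genotype by 1.14 on the log2 scale without MC903 and gave -0.08 ± 0.14 with it, an interaction of 1.06 ± 0.20 (DESeq2 adjusted p = 0.00733). Ephx1, an epoxide hydrolase gene, had the same pattern: 90.7, 93.6 and 73.2 CPM in untreated WT, 45.1, 41.6 and 46.7 in untreated cKO, 30.3, 40.4 and 41.2 in MC903 WT and 35.5, 41.8 and 32.9 in MC903 cKO (interaction 0.93 ± 0.23). Its untreated call was not kept without cKO replicate 2, nor without the 3 libraries with the highest fibroblast and endothelial marker sums (adjusted p up to 0.0779 by edgeR). The interferon-inducible surface gene Ly6e (0.67 ± 0.17) and the centromere histone gene Cenpa (0.80 ± 0.22) belong here as well.

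In the second shape the genotypes were level in untreated skin and cKO was higher under MC903. Il10, the gene of the inhibitory cytokine interleukin 10, was at 527, 541 and 519 CPM in untreated WT and 541, 512 and 527 in untreated cKO, and MC903 brought it to 202, 213 and 162 CPM in WT but 306, 302 and 298 in cKO. The untreated groups were interleaved, and all 3 cKO libraries of MC903 skin exceeded all 3 WT ones. MC903 lowered Il10 in WT by a log2 change of -1.46 ± 0.11 and in cKO by -0.80 ± 0.11, both called. The genotype difference was -0.01 ± 0.11 without MC903 and 0.65 ± 0.11 with it (adjusted p = 0.0182 by edgeR), an interaction of 0.66 ± 0.16 (interval 0.32 to 1.0; DESeq2 adjusted p = 0.0238). The MC903 genotype call was not kept without MC903 WT replicate 1 or 3 or any 1 of the MC903 cKO libraries. It was also lost without the 3 libraries with the highest fibroblast and endothelial marker sums, and with lymph node libraries in the fit (adjusted p up to 0.206 by edgeR). Ctsw, the gene of the protease cathepsin W of cytotoxic cells, was at 52.4, 54.3 and 107 CPM in untreated WT and 66.6, 65.6 and 56.7 in untreated cKO. With MC903 the WT libraries held 7.59, 7.09 and 6.97 CPM, the cKO libraries 16.2, 15.4 and 29.5, and the groups were apart. Its interaction was 1.67 ± 0.40, and its genotype call in MC903 skin (adjusted p = 0.0456 by edgeR) was kept in 8 of 21 alternatives. Igflr1, a TNF receptor-like gene, had an interaction of 0.96 ± 0.24 of the same kind.

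In the third shape the genotype difference changed sign. Fth1, the gene of ferritin heavy chain, which stores iron, was at 10220, 12699 and 10741 CPM in untreated WT, 9512, 8393 and 8366 in untreated cKO, 5805, 5610 and 5980 in MC903 WT and 7055, 7531 and 7483 in MC903 cKO. All cKO libraries were below WT without MC903 and above it with MC903. The differences, -0.36 ± 0.11 and 0.34 ± 0.11, were not called on their own, and the interaction was 0.70 ± 0.16 (DESeq2 adjusted p = 0.00733). Malat1, a nuclear long noncoding RNA, was at 7773, 8921 and 8783 CPM, 6497, 6327 and 6579 CPM, 4277, 3093 and 3375 CPM, and 4655, 5401 and 4245 CPM in the same order of groups, with an interaction of 0.81 ± 0.19. Its MC903 groups overlapped slightly. Myo6, an unconventional myosin gene, was at 2.87, 5.64 and 3.74 CPM in untreated WT and 2.09, 1.62 and 2.14 in cKO, and MC903 raised it to 26.1, 17.7 and 14.2 CPM in WT and 26.2, 30.2 and 26.3 in cKO (interaction 1.58 ± 0.40).

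The MC903 responses of the 2 genotypes also rest on separate libraries. Called in both were 690 genes, 53.4% of the WT list and 51.5% of the cKO list, and all 690 had the same direction, 286 up and 404 down. Of these, 526 had an interaction interval within 1 log2 unit and 35 an unadjusted interaction p under 0.05. Over all 13211 genes the shares were 43.6% and 4.91%. A call in both genotypes favours genes with alike responses. Of the 1941 genes called in either genotype, 303 had an unadjusted interaction p under 0.05. Gimap1, a GTPase gene of lymphocyte survival, rose in WT from 45.6, 43.7 and 55.1 CPM to 254, 177 and 269 CPM and in cKO from 50.2, 58.4 and 57.9 CPM to 208, 294 and 246 CPM (2.28 and 2.17). Dusp1, a phosphatase gene that damps MAP kinases, fell in WT from 2740, 2616 and 2193 CPM to 594, 620 and 678 CPM and in cKO from 1730, 2239 and 2491 CPM to 748, 614 and 620 CPM (-2.0 and -1.70). Neither gene had groups that overlapped between treatments. Adk, the adenosine kinase gene, rose by 1.76 and 1.94, the homeobox gene Hhex by 2.48 and 2.53, and the actin-severing protein gene Scin by 2.58 and 2.85. The other genes named on the downward side had interactions of 0.28 (the amino acid transporter subunit gene Slc3a2), 0.05 (the actin regulator gene Baiap2), -0.15 (the tubulin gene Tubb2a) and -0.38 (Sfn, a 14-3-3 protein gene that is also a keratinocyte marker).

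Type 2 genes were followed because the model is one of type 2 inflammation. Il4 was at 1.48, 3.83 and 2.26 CPM in untreated WT, 4.92, 3.85 and 4.16 in untreated cKO, 1.62, 1.89 and 1.09 in MC903 WT and 4.82, 3.85 and 4.20 in MC903 cKO. Both cKO groups lay above the WT groups, though without MC903 only by 3.85 against 3.83 CPM. The genotype differences, 0.77 ± 0.42 and 1.48 ± 0.43, were not called (adjusted p = 0.562 and 0.299 by edgeR). The interaction of 0.71 had an interval from -0.57 to 1.99. Il13 (-0.47, interval -2.47 to 1.53) and Il5 (-0.92, interval -5.49 to 3.64, with 0 CPM in 2 libraries) had wider intervals. The intervals of all 3 cytokine genes included a 2-fold interaction, so these libraries cannot exclude 1 of that size.

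The genes of the interleukin 33 axis were measured more closely. Il1rl1, its receptor, was at 615, 577 and 731 CPM in untreated WT, 794, 737 and 828 in untreated cKO, 889, 738 and 1008 in MC903 WT and 1025, 835 and 887 in MC903 cKO, with an interaction of -0.23 (interval -0.65 to 0.18). Areg, the gene of the repair factor amphiregulin, fell with MC903 by -1.31 in WT and -1.34 in cKO on the log2 scale, and its interaction was -0.03 (interval -0.65 to 0.59). Gata3, the lead transcription factor gene of type 2 cells, was higher in cKO libraries of both treatments, at 953, 1057 and 1111 against 821, 598 and 642 CPM without MC903 and 992, 890 and 896 against 697, 645 and 781 CPM with it. Its differences of 0.60 ± 0.13 and 0.39 ± 0.13 missed the test (adjusted p = 0.0548 and 0.464 by edgeR), and the interaction was -0.21 (interval -0.61 to 0.19). Foxp3 had an interaction of 0.19 (interval -0.30 to 0.69). For these 4 genes an interaction of 2-fold or more lay outside the interval.

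Gene lists are given by the median interaction of their tested members and by how many lay above 0, beside a median of 0.006 over all genes. In none of the lists was a member called for the interaction by edgeR. Oxidative phosphorylation, whose genes encode the respiratory chain and ATP synthase, had a median of 0.34, with 28 of 33 above 0 and values from -0.11 to 0.54. The shift was small and spread over many subunits. Ndufa1, of complex I, had the smallest p in the list. It was at 94.5, 123 and 114 CPM in untreated WT, 129, 101 and 85.2 in untreated cKO, 126, 141 and 117 in MC903 WT and 184, 164 and 182 in MC903 cKO (interaction 0.54 ± 0.22). MC903 raised 2 of the 33 genes in WT, with a median of 0.22, and 17 in cKO, with a median of 0.51, where 4.22% and 5.19% of all genes were called higher; the genotype medians were -0.15 without MC903 and 0.14 with it. With libraries scaled by total counts, which moved the median of all genes to -0.10, the list's median was 0.24, and without untreated cKO replicate 1 it was 0.57.

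Interferon-stimulated genes, the antiviral set that type I interferon switches on, had a median interaction of 0.42, with 20 of 25 above 0, 5 above and 1 below 0 at an unadjusted p under 0.05. Isg15, a ubiquitin-like protein gene, was at 91.5, 130 and 84.3 CPM in untreated WT, 73.0, 76.5 and 81.8 in untreated cKO, 60.5, 44.1 and 58.4 in MC903 WT and 77.6, 63.7 and 84.6 in MC903 cKO. It fell with MC903 in WT (-0.91 ± 0.18, adjusted p = 0.00664 by edgeR) and gave -0.03 ± 0.18 in cKO, an interaction of 0.87 ± 0.25. Bst2 (tetherin, 0.66 ± 0.25), Ifi27l2a (0.99 ± 0.35), Ifi35 (0.47 ± 0.20) and the barely counted Mx1 were the others above 0, and Ifit2 (-1.35 ± 0.49) was the one below. The list's median MC903 response was -0.40 in WT, where 0 rose and 4 fell, and 0.55 in cKO, where 3 rose and 0 fell. Of all genes 4.22% rose and 5.56% fell in WT and 5.19% rose and 4.94% fell in cKO, so that with 25 members these counts are small.

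Treg identity genes had a median interaction of 0.35 (13 of 17 above 0) and suppressive molecules 0.37 (13 of 19), lists that share members. The first median was 0.18 without MC903 WT replicate 2. Lrrc32, which encodes GARP, the surface anchor of latent TGF-beta, is in both. It was at 66.4, 37.2 and 96.7 CPM in untreated WT, 18.1, 29.6 and 23.4 in untreated cKO, 96.6, 97.5 and 127 in MC903 WT and 118, 89.9 and 103 in MC903 cKO, an interaction of 1.45 ± 0.40. Its genotype call in untreated skin was not kept without any 1 of 6 libraries (adjusted p up to 0.173 by edgeR). These were untreated WT replicates 1 and 3, each untreated cKO library and MC903 WT replicate 1. The call was also lost without the 3 libraries with the highest fibroblast and endothelial marker sums, and with lymph node libraries in the fit. Nt5e, the gene of the adenosine-producing enzyme CD73, had 1.09 ± 0.44.

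Granzymes and cytotoxic granule genes had a median of 0.40 (11 of 14 above 0) and the type 1 list 0.30 (12 of 16). The type 1 median was 0.13 without MC903 WT replicate 2 or MC903 cKO replicate 3 and 0.15 without untreated WT replicate 3. Nkg7, a granule protein gene, was higher in cKO in both treatments and more so under MC903. It was at 79.9, 99.0 and 67.2 CPM in untreated WT, 215, 186 and 152 in untreated cKO, 27.1, 28.3 and 23.4 in MC903 WT and 99.8, 83.2 and 119 in MC903 cKO. The genotype difference was 1.17 ± 0.18 without and 1.94 ± 0.18 with MC903, each called, with an interaction of 0.77 ± 0.25 that was not. Tbx21, the type 1 transcription factor gene T-bet, had an interaction of 0.95 ± 0.37 and Il12rb1, an interleukin 12 receptor chain gene, 0.86 ± 0.29.

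The type 17 list was lowest among the lists of Treg programmes, at -0.30 with 6 of 16 above 0, and Ccr6, Ahr (-0.59 ± 0.25) and Batf (-0.59 ± 0.23) were its members at an unadjusted p under 0.05. Without MC903 cKO replicate 1 the median was -0.18. Type 2 genes had a median of -0.12 (7 of 17), which was 0.009 without untreated WT replicate 3, with Irf4, a transcription factor gene of effector Tregs, at -0.51 ± 0.21. Genes of the T cell receptor response had -0.17 (7 of 19), which was -0.02 without untreated cKO replicate 2. Among them Myc, a growth regulator gene, was at 93.4, 79.2 and 67.8 CPM in untreated WT, 118, 123 and 91.4 in untreated cKO, 120, 147 and 184 in MC903 WT and 107, 74.8 and 116 in MC903 cKO. It rose with MC903 in WT by 0.91 and gave -0.16 ± 0.20 in cKO, an interaction of -1.06 ± 0.28. The rise in WT was not called without MC903 WT replicate 3 (adjusted p up to 0.075 by edgeR). Nor was it called without the 3 libraries with the highest fibroblast and endothelial marker sums. Its WT group of MC903 skin was above the other 3 groups except for 1 untreated cKO library.

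Circadian clock genes and targets of ROR or REV-ERB receptors had a median interaction of -0.08 (10 of 24 above 0). Genotype lowered 2 of the 24 in untreated skin and 3 in MC903 skin, and raised 0 in either, where 0.371% and 0.189% of all genes were called lower. TNF receptors and ligands had -0.09 (16 of 36 above 0), led by Tnfsf8 and by Cd27, a costimulatory receptor gene also in the resting T cell list. Cd27 was at 488, 583 and 475 CPM in untreated WT, 411, 389 and 464 in untreated cKO, 455, 321 and 389 in MC903 WT and 496, 561 and 504 in MC903 cKO. Its cKO libraries were all below WT without MC903 and all above it with MC903 (interaction 0.71 ± 0.20). Tnfsf11, the gene of RANK ligand, had -0.76 ± 0.35. In the homing receptor list (median 0.14, 12 of 20) Cxcr6 (1.0 ± 0.30) and Ccr10 (1.21 ± 0.52) were above 0 while Gpr15, Ccr6 and Ccr9 were below, the last at 0 counts in all 3 untreated WT libraries.

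The remaining lists had medians from -0.18 (cholesterol synthesis, 7 of 23 above 0) to 0.13 (follicular regulatory genes, 8 of 14, and cytokine receptor chains, 19 of 32). Between them lay cell cycle (-0.13, 9 of 29), glycolysis and hypoxia (-0.07, 9 of 25), the tissue Treg programme (-0.05, 10 of 25), NF-kappa-B targets (0.01, 11 of 20), resting and lymphoid T cell genes (0.02, 9 of 18), lipid uptake and oxidation (0.09, 14 of 23), immediate early and heat shock genes (0.09, 17 of 25) and vitamin D response (0.10, 5 of 10). Each is represented by its member of smallest p. Those members are the squalene synthase gene Fdft1 (-0.47 ± 0.21), the T cell adaptor gene Sh2d1a (0.75 ± 0.30), the mitotic kinase gene Aurkb (-1.39 ± 0.50), the hexokinase gene Hk2 (-0.80 ± 0.33), the kinase gene Map3k8 (-0.50 ± 0.22), the triglyceride synthesis gene Dgat1 (0.29 ± 0.15), the stress gene Ier3 (-0.61 ± 0.33) and the growth arrest gene Gadd45a (0.39 ± 0.25).

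**Figure D4:**
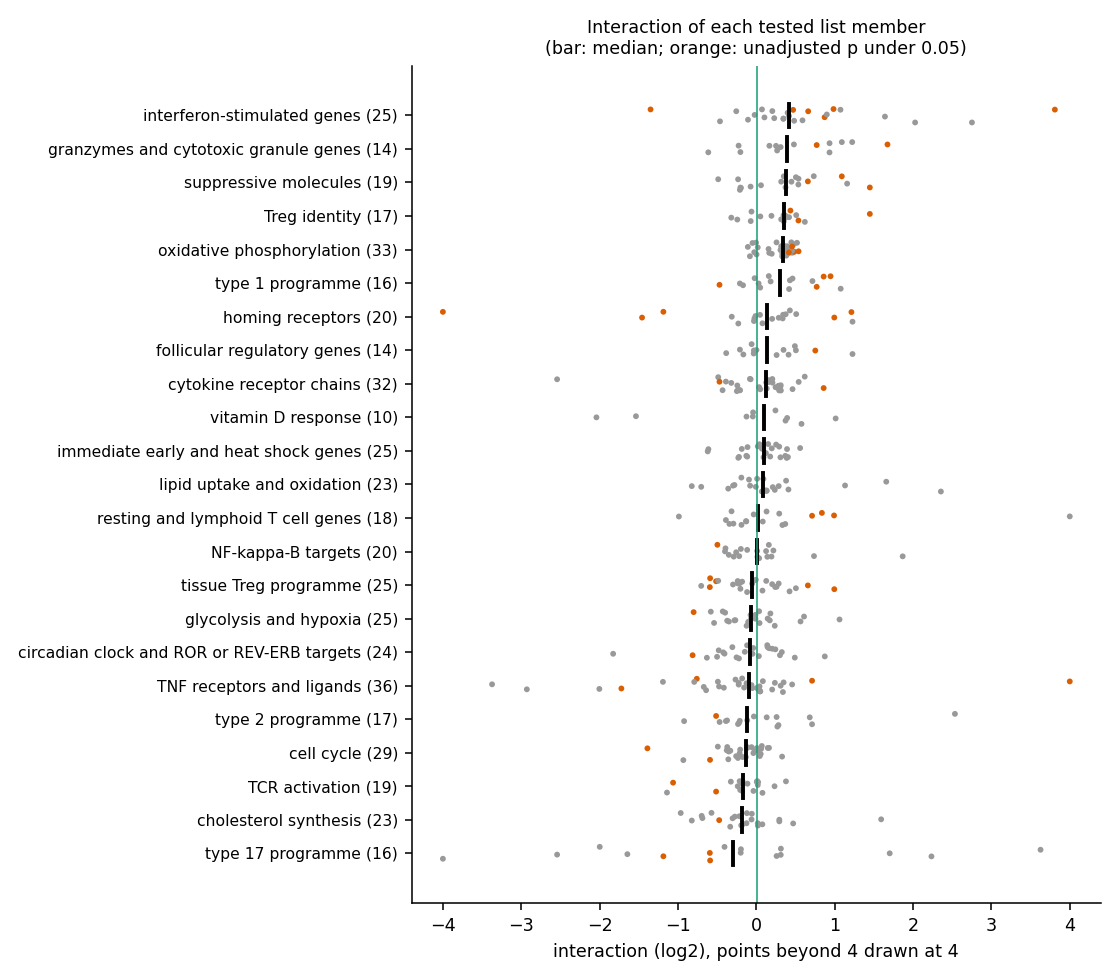
The log2 interaction of every tested member of each list, 1 point per gene, with the number tested in brackets, black bars at list medians, a green line at the median of all genes, orange for an unadjusted p under 0.05, and 4 members beyond the axis drawn at its edge. Oxidative phosphorylation forms a narrow cloud to the right of the line around 0.34, while the type 17 list, at -0.30, is spread widely on both sides.

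Transcripts of other cells were present and some moved with the same contrast. Macrophage, dendritic and Langerhans cell markers summed to 675 to 1396 CPM in untreated WT, 825 to 1832 in untreated cKO, 502 to 643 in MC903 WT and 744 to 1027 in MC903 cKO, most of it Cd74, which activated T cells can also carry. In MC903 skin all cKO libraries were above all WT ones. Of the 18 tested markers 15 had an interaction above 0, with a median of 1.89, and 5 did so at an unadjusted p under 0.05, namely Cd68, Itgam, C1qa, C1qb and Mrc1. Itgam was at 0 in 4 libraries and C1qa, C1qb and Mrc1 in 1 library each. That median was -0.02 without untreated WT replicate 3 and 1.11 without MC903 cKO replicate 2. Fth1 is abundant in macrophages, and the part of these cells in its interaction was not tested.

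Tbc1d4, a glucose transport regulator gene, and Pf4, a platelet chemokine gene also made by macrophages, were named because DESeq2 called them. Tbc1d4 was at 11.4, 1.98 and 4.61 CPM in untreated WT, 0.780, 1.37 and 0.975 in untreated cKO, 7.23, 8.62 and 7.04 in MC903 WT and 11.8, 10.3 and 8.95 in MC903 cKO. The groups were apart in opposite directions in the 2 treatments, and the untreated WT libraries were far from each other. Pf4 was at 0.493, 3.79 and 5.33 CPM, 0.369, 0.166 and 0.262 CPM, 3.88, 0.427 and 2.32 CPM, and 2.87, 21.1 and 4.06 CPM in the same order, with 1 MC903 cKO library high. Its interaction was 5.64 ± 1.44. In that library markers of erythroid cells and platelets summed to 22.5 CPM against 0.414 to 6.20 in the other 11. Pf4 is itself in that list and made up 21.1 of the 22.5 CPM, so the sum mostly repeats its value. The 6 haemoglobin genes of the list were at 0 counts in all 12.

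Markers of mast cells, basophils and granulocytes summed to 22.5 to 89.2 CPM over the 12 libraries, with 11 of 12 tested markers above 0 and a median interaction of 5.42. It was 1.32 without untreated WT replicate 2 and 1.70 without untreated WT replicate 3. Over the 12 libraries Cpa3 was at 0 in 4 and Tpsb2 in 6, and fitted values of such genes are no measure of size. Keratinocyte markers summed to 432 to 803 CPM in untreated WT, 377 to 562 in untreated cKO, 199 to 570 in MC903 WT and 171 to 374 in MC903 cKO, with 14 of 17 tested markers below 0 and a median of -1.29. That median was -5.10 without MC903 cKO replicate 3, -0.75 without MC903 cKO replicate 1 and -0.77 without MC903 WT replicate 1. Fibroblast and endothelial markers summed to 107 to 210, 56.1 to 239, 157 to 413 and 203 to 551 CPM in the same order, with 13 of 17 above 0 and a median of 0.53, which was -0.79 without MC903 cKO replicate 3 and 1.58 without untreated cKO replicate 1. By edgeR no list of other cells had a called member for the interaction in the fit of all 12 libraries; DESeq2 called Pf4.

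Lymphoid markers were low. Those of CD8 T cells, gamma-delta T cells, NK cells and innate lymphocytes added up to 11.6 to 27.9 CPM, mostly Cd8b1, with Ncr1 and Klra8 at 0 in all 12 libraries. By group the sums were 12.92 to 14.97 CPM in untreated WT, 16.73 to 27.86 in untreated cKO, 11.57 to 17.97 in MC903 WT and 17.86 to 24.07 in MC903 cKO. All cKO sums were above all WT sums without MC903, and the groups overlapped slightly with it. The 3 tested markers had a median interaction of -0.18. B cell markers summed to 7.95 to 24.5 CPM, with Pax5 at 0 in all 12, and the 5 tested had a median of 0.06. Conventional T helper markers, led by Cd40lg and Bcl6, summed to 92.0 to 131 CPM in untreated WT, 152 to 183 in untreated cKO, 53.2 to 65.6 in MC903 WT and 89.0 to 108 in MC903 cKO. All cKO libraries were above all WT libraries of the same treatment there, and the median interaction of the 8 tested was 0.07. The part of other cells in the values of Gad1, Gpr15, Il10 and the other genes named above was not tested. Without the 3 libraries with the highest fibroblast and endothelial marker sums (MC903 cKO replicate 3, MC903 WT replicate 3 and untreated cKO replicate 1), the interactions of Gad1, Gpr15, Ccrl2 and Il10 kept their sign, as they did when any 1 library was left out. These genes were named for a small interaction p, so a kept sign is no test of the part of other cells. The genotype call of Il10 in MC903 skin was not kept without those 3 libraries. Without those 3 libraries the median of the macrophage list was 2.60, against 1.89 in the fit of all 12.

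**Figure D5:**
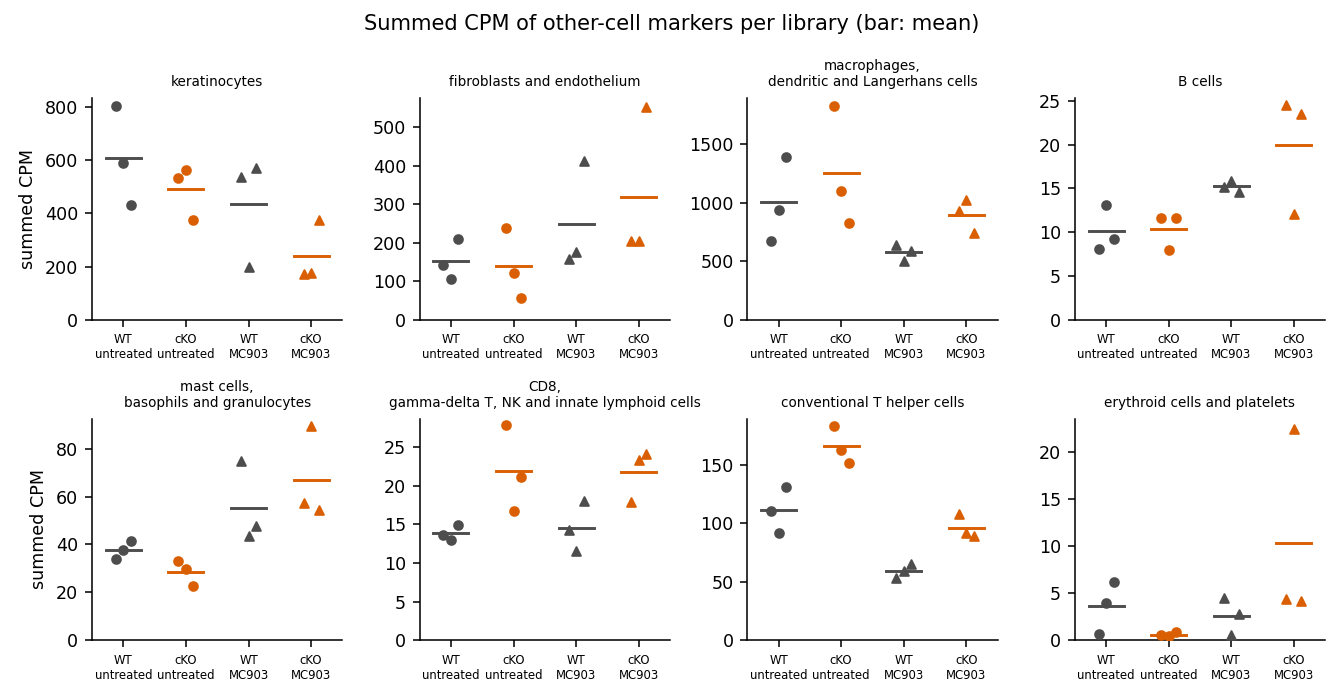
Summed CPM of the markers of 8 other cell types, 1 panel per list on a linear axis from 0, with 1 point per library, bars at group means, WT in grey, cKO in orange, circles for untreated and triangles for MC903 skin. MC903 cKO libraries lie above MC903 WT libraries for macrophage and related markers and for T helper markers. For erythroid and platelet markers 1 MC903 cKO library stands apart at 22.5 CPM, most of it Pf4.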

How the data were processed

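Per the labels' protocols, SMART-Seq v4 libraries of sorted Treg RNA were sequenced from one end for 75 bp on a NextSeq instrument. TopHat2 2.0.6, mm9 and DESeq2 (no version) are named in the submitters' processing notes; the counter and gene annotation are not given in the sources used here, so how reads of overlapping or near-identical genes were assigned is unknown. The authors deposited raw counts per gene and library, 19.8 to 27.2 M per library, which are not independent molecules.

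The 12 skin columns were fitted in R 4.3.3 with edgeR 4.0.16: filterByExpr over the 4 groups, TMM factors (0.927 to 1.08), robust quasi-likelihood fit (biological coefficient of variation 39.7%), contrasts tested with Benjamini-Hochberg adjustment and called at an adjusted p under 0.05. CPM use the TMM-scaled library sizes, and values are log2 ± SE with n = 3 per group. No 2 libraries held identical counts. Pearson r is across genes.

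Genes were named by rule: up to 15 called per direction, or, with fewer than 10 called, the 10 per direction with the smallest p among genes whose mean log2 CPM reached 3; 16 followed genes; the called members of each list, or its member with the smallest interaction p; up to 10 genes called between genotypes in both treatments; and up to 5 per direction called for MC903 in both genotypes. Unnamed gene models were left out. Some results are not reported here. Members and lists were chosen with earlier results of these data known. Alternatives were DESeq2 1.42.0, limma-voom (limma 3.58.1), other scaling, filters and library sets, and a replicate block. The fits were tested on simulated data with 1 spread for all genes, smaller than that found here. That test does not show how large an interaction these libraries could detect.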

Additional observations from a re-analysis of the deposited data

Results flagged for a closer look

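The genotype difference differed between untreated and MC903 skin by DESeq2's Wald test of the interaction, though not by edgeR's, in 12 named genes. The DESeq2 interactions on the log2 scale were -2.35 for Gad1, -2.07 for Pde3b, -1.71 for Tnfsf8, -1.54 for Sidt1 and -1.45 for Gpr15 on the negative side. On the positive side they were 0.67 for Il10, 0.71 for Fth1, 0.81 for Malat1, 1.07 for Ccrl2, 1.69 for Ctsw, 2.99 for Tbc1d4 and 5.68 for Pf4. The 5 negative genes are all higher in cKO than WT in untreated skin.

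In 7 named genes all cKO libraries lay on one side of all WT libraries in untreated skin and on the other side in MC903 skin. The interactions were 0.70 for Fth1, 0.71 for Cd27, 0.87 for Isg15, 1.58 for Myo6, 2.97 for Tbc1d4, -0.76 for Tomm70a and -1.12 for Naa40. None of these 7 interactions passed edgeR's test, and of all genes tested 0.431% were split in this way. The 7 were named for a small interaction p, among genes or within a list, or for DESeq2's call. That choice favours genes split in this way, so their number cannot be set against the 0.431%. The percentage that chance alone would give was not computed.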

How the results depend on the processing

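Interaction calls were 0 by edgeR in every alternative but 2: DESeq2 gave 13, and leaving out the 3 libraries with the highest fibroblast and endothelial marker sums gave 1, the collagen-binding gene Dcn, itself one of the markers that chose those libraries (4.59 ± 0.51, adjusted p = 0.028). Each library left out in turn gave 0. Genes at an unadjusted p under 0.05 numbered 1093 without untreated WT replicate 1, 1101 without untreated cKO replicate 1 and 1062 without the 3 libraries, against 649. The genotype count in untreated skin (107) was 315 by DESeq2, 52 without those 3 libraries and 57 to 115 with each library left out in turn. It was 70 without WT replicate 3, 67 without cKO replicate 2 and 57 without cKO replicate 3. The count in MC903 skin (47) was 156 by DESeq2, 109 by limma-voom, 18 without those 3 and 16 to 53 with 1 library out, with 24 and 27 without WT replicates 2 and 3 and 16 and 25 without cKO replicates 2 and 3. The MC903 count in WT (1292) was 577 without those 3 and 643 to 1390 with 1 library out, with 643 and 703 without MC903 replicates 1 and 3. In cKO (1339) it was 2090 by DESeq2, 2657 by limma-voom and 570 to 1766 with 1 library out, with 571 and 574 without untreated replicates 2 and 3 and 871, 570 and 695 without MC903 replicates 1, 2 and 3. Calls kept under all 21 alternatives were 32 of 107, 11 of 47, 409 of 1292 and 408 of 1339. Scaling by total counts, chosen after seeing the data, turned the WT split of 558 higher and 734 lower into 1017 and 470, the cKO split of 686 and 653 into 830 and 591, and the MC903 genotype split of 22 and 25 into 11 and 31. The cause of these shifts was not tested.

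Over the 67 named genes and 21 alternatives, 1395 of 1407 interactions kept their side of the threshold, and 12, all by DESeq2, passed it. The sign changed 35 times, in 12 genes whose unadjusted p was 0.05 or more both ways, among them Tnfrsf25, Gzmb, Rora, Nr1d1 and Areg. With the replicate number as a block the interaction count was 0 (540 at an unadjusted p under 0.05) and no other count moved by over 1.5 times. Same-numbered libraries correlated at -0.282 to 0.231, 1 of 18 pairs over 0.1, so no pairing by number was seen. These correlations do not show whether same-numbered libraries were handled together.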
